A study of Mus musculus with 6 samples.

Results

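Transcripts of 36 cadherin and protocadherin genes other than those of the tip link, the filament that joins neighbouring stereocilia, were compared between the cochlear and the vestibular sensory epithelium of newborn mice. The genes were taken from a fixed list of mouse symbols and found by Ensembl gene identifier among the 39179 genes of the count tables, where all 36 were present. They comprised 21 Cdh genes, 5 genes of the Fat and Dachsous group and 10 protocadherins, and the clustered protocadherins were not on the list. The tissue came from wild-type C57Bl/6J mice at postnatal day 0, male and female pooled, with no treatment and no engineered allele in either group. Each tissue was represented by 3 RNA-seq libraries. The submitters' design text names 1 dissection of 20 inner ears from 10 mice that gave both tissues, so the groups may share their animals, and the replicate numbers are not said to mark an animal or a pool. Nothing in the sources used here says that the 3 libraries of a tissue came from separate pools, so the p-values below measure the spread between libraries, which may be technical. Pairs of libraries of 1 tissue differed by more than counting noise, with a chi-square of 31 to 111 per degree of freedom over the tested genes.

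Cadherins are calcium-dependent adhesion proteins of the cell surface. Classical cadherins bind their like on the neighbouring cell and hold the actin cytoskeleton through catenins, and the type II cadherins are a related branch with many members in the nervous system. Fat and Dachsous proteins are giant cadherins that bind each other across cell borders and take part in planar cell polarity, the common orientation of cells in a sheet that is conspicuous among hair cells. Protocadherins outside the clustered families adhere more weakly and are best known for sorting neurons and shaping their contacts.

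Between 24464483 and 33664793 reads were assigned to genes per library, so that 1 CPM, the read count of a gene scaled to the usual common library size, stood for 24.5 to 33.7 reads. A gene was tested when it reached 1 CPM in at least 3 libraries, and 14723 genes did. The summed level of 6 hair cell markers was 522 to 715 CPM in the cochlear and 902 to 1184 CPM in the vestibular libraries, with no marker of that list at 0. Hair cells belong to both tissues, so finding these markers does not check the labels, although their sums did not overlap here. Cochlear replicate 3 stood apart by its summed skeletal muscle markers (238 CPM, against 4.05 and 7.81 CPM in the other cochlear libraries and 6.00 to 20.8 CPM in the vestibular ones) and by its summed neuronal markers (163 CPM, against 452 and 530 CPM). Among the vestibular libraries, replicate 1 stood apart in the neuronal sum (316 CPM, against 104 and 129 CPM). Of the 8 skeletal muscle markers 3 passed the filter, and 1 (Tnnc2) was at 0 in every library. In bulk tissue, fewer cells of a type and less RNA per cell cannot be told apart, and this holds for every difference below.

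Of the 36 genes, 32 passed the filter. In all, 11 were higher in the cochlea and 6 were higher in the vestibule by edgeR's quasi-likelihood test at a Benjamini-Hochberg false discovery rate (FDR) of 0.05 over all genes tested, and 15 were not called. Among all 14723 genes the same test called 11.6% higher in the cochlea, 15.8% higher in the vestibule and 27.4% in either direction, beside 34.4%, 18.8% and 53.1% of the tested members. After scaling of the libraries by the trimmed mean of M values (TMM), the CPM values of the 2 tissues did not overlap for 21 members, 65.6% of those tested, of which 15 lay higher in the cochlea and 6 in the vestibule, beside 41.8% of all genes. These were the 17 called members and Cdh10, Cdh15, Cdh17 and Fat2, whose unscaled CPM values, as given below, do overlap. The log2 fold change (vestibule minus cochlea, negative where the cochlea was higher) had a median of -0.39 over the members and 0.0048 over all genes, and its absolute value a median of 0.67 and 0.32. Without cochlear replicate 3, and likewise without vestibular replicate 1, 10 members were called higher in the cochlea and 6 in the vestibule.

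**Figure D1:**
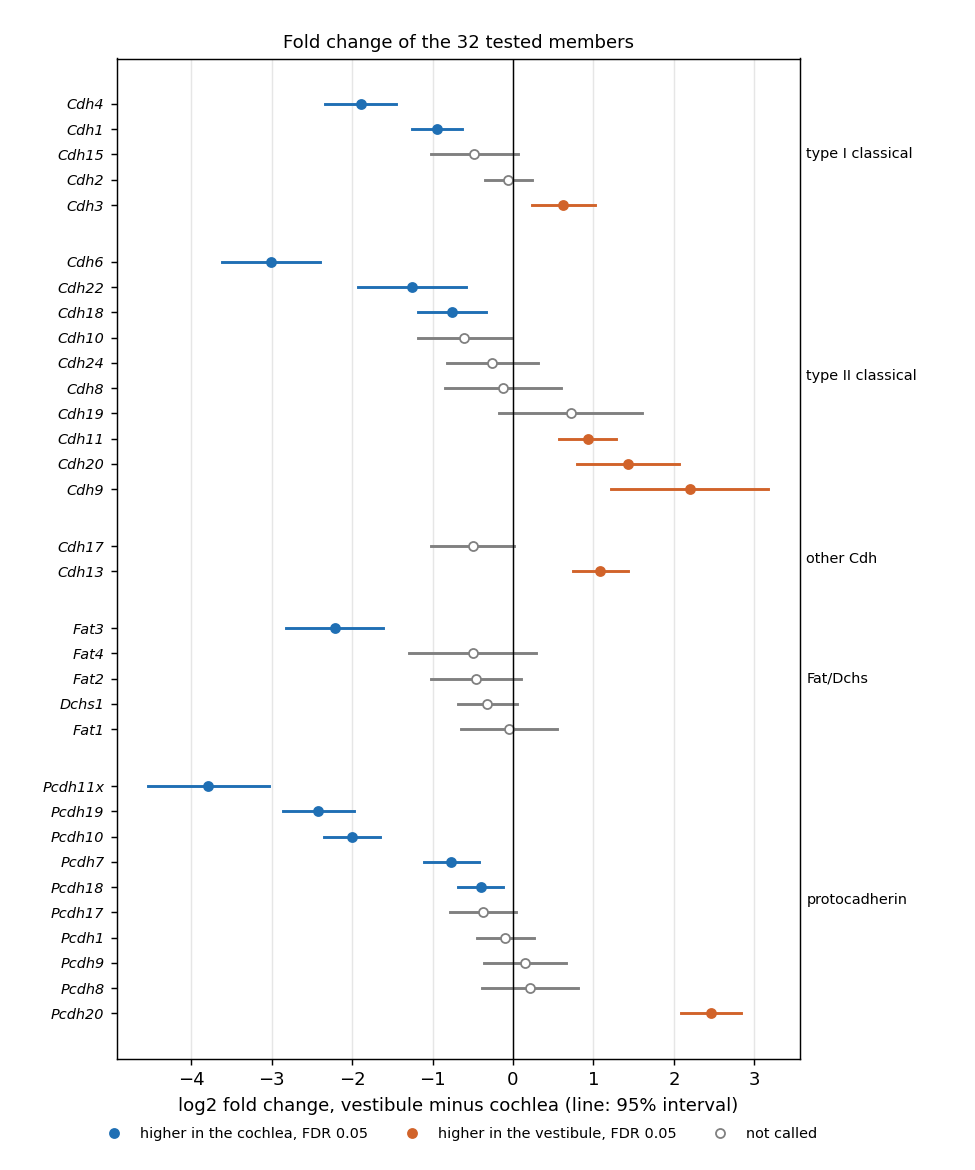
Log2 fold change between vestibule and cochlea of each of the 32 tested members (x axis, vestibule minus cochlea), with its 95% interval as a line, grouped by branch of the family. Filled blue points mark the 11 members called higher in the cochlea, filled orange points the 6 called higher in the vestibule, and open grey points the 15 that were not called. Pcdh11x lies farthest to the left at -3.79 and Pcdh20 farthest to the right at 2.46.

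Among the type I classical cadherins, Cdh1 and Cdh4 were higher in the cochlea, Cdh3 was higher in the vestibule, and Cdh2 and Cdh15 were not called. Cdh1 (ENSMUSG00000000303, chr8:106603351-106670246, GRCm38) encodes E-cadherin, the main cadherin of epithelial junctions. Its level was 416, 503 and 503 CPM in the cochlear libraries and 282, 271 and 251 CPM in the vestibular ones. Every cochlear value lay above every vestibular value, and the log2 fold change was -0.94 (SE 0.138, adjusted p = 0.00115). The epithelial markers moved in the opposite direction. Their summed level was 647 to 737 CPM in the cochlea and 1274 to 1321 CPM in the vestibule, 3 of the 4 were called higher in the vestibule, and none was at 0.

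Cdh3 encodes P-cadherin, another epithelial cadherin, and lies 46.05 kb from Cdh1 on the same strand of chromosome 8 (chr8:106510891-106557297), with 1 annotated coding gene between them. In contrast to Cdh1, Cdh3 was lower in the cochlear libraries, at 67.9, 94.8 and 104 CPM, than in the vestibular libraries, at 149, 152 and 147 CPM. The vestibular libraries were close together and all above the cochlear ones (log2 fold change 0.62, SE 0.171, adjusted p = 0.0266). This call was lost without cochlear replicate 1 (log2 fold change 0.45, adjusted p = 0.0521), cochlear replicate 2 (0.70, adjusted p = 0.0514), vestibular replicate 2 (0.64, adjusted p = 0.0834) or vestibular replicate 3 (0.61, adjusted p = 0.0558), with the direction kept each time.

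Cdh4 encodes R-cadherin, first known from the retina. Its gene (chr2:179442431-179899373) gave 212, 317 and 334 CPM in the cochlea and 89.5, 91.2 and 73.0 CPM in the vestibule. The lowest cochlear library was thus above the highest vestibular one by a wide margin, and the log2 fold change was -1.89 (SE 0.194, adjusted p = 0.000167).

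N-cadherin, the product of Cdh2 and the classical cadherin of neural and mesenchymal cells, gave 137, 155 and 166 CPM in the cochlea and 160, 156 and 161 CPM in the vestibule. These groups overlapped, and the 95% interval of the log2 fold change, -0.35 to 0.23, gives the range of difference that these libraries allow. Cdh15, the M-cadherin of skeletal muscle, was 2.37, 2.78 and 2.87 CPM in the cochlea and 1.99, 1.87 and 2.39 CPM in the vestibule (log2 fold change -0.48, 95% interval -1.02 to 0.06). In cochlear replicate 3, where the summed muscle markers were 238 CPM, Cdh15 was 2.87 CPM, next to 2.78 CPM in cochlear replicate 2.

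The levels of Cdh1 and Cdh2 were also set against each other within each library, on the RPKM scale of the authors' log2 matrix, which divides reads by library size and by gene length. The log2 ratio of Cdh1 to Cdh2 was 2.42, 2.52 and 2.42 in the cochlear libraries but 1.64, 1.61 and 1.46 in the vestibular ones. Cdh1 was therefore 5.47 times as high as Cdh2 in the cochlea and 2.97 times as high in the vestibule, with an SD of the log2 ratio of 0.0588 and 0.0962 (n = 3 each).

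Of the 12 type II cadherins 10 were tested, and 3 were higher in the cochlea, 3 were higher in the vestibule and 4 were not called. Their median log2 fold change was -0.19, with changes as large as -3.01 and 2.20 at the ends. The branch thus held large differences of both signs, beside 2 members that were below the filter.

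Cdh6 (ENSMUSG00000039385, chr15:13028701-13173675), a type II cadherin known from the developing kidney and nervous system, was 34.6, 28.2 and 50.0 CPM in the cochlea and 7.01, 4.21 and 3.96 CPM in the vestibule. The tissues were well apart, by 8.04-fold in the fit (log2 fold change -3.01, SE 0.269, adjusted p = 8.27e-05). The next member along chromosome 15 was Cdh9 (chr15:16728756-16857094), a cadherin of specific synapses, with no coding gene annotated in the 3555 kb between them. Cdh9 went the other way, at 1.92, 0.660 and 0.684 CPM in the cochlea and 7.40, 4.87 and 3.85 CPM in the vestibule (log2 fold change 2.20, SE 0.428, adjusted p = 0.00526). No cochlear library reached the lowest vestibular library for Cdh9, although its level was low throughout. Without cochlear replicate 1, the cochlear library with the highest value, the log2 fold change was 2.85.

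Cdh11 (ENSMUSG00000031673, chr8:102632095-102785642), a cadherin of mesenchyme and bone-forming cells, was 194, 131 and 183 CPM in the cochlea and 366, 325 and 355 CPM in the vestibule. All vestibular libraries were above all cochlear ones (log2 fold change 0.93, SE 0.157, adjusted p = 0.00248). Of 7 mesenchymal markers 4 were called higher in the vestibule, 1 (Pou3f4) was called higher in the cochlea, 2 were not called and none was at 0, with a median log2 fold change of 0.41. Their summed level was 2634 to 3261 CPM in the cochlea and 6037 to 6834 CPM in the vestibule, most of it from Col1a2 (1868 to 2501 CPM and 4617 to 5251 CPM). Their part in the Cdh11 difference was not tested.

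Cdh20, a type II cadherin of the nervous system, was 1.27, 1.04 and 0.684 CPM in the cochlea and 2.91, 3.15 and 2.71 CPM in the vestibule, with no overlap (log2 fold change 1.43, SE 0.278, adjusted p = 0.00520). Cdh22 showed the opposite order, with 3.39, 3.89 and 2.16 CPM in the cochlea and 1.31, 1.48 and 1.53 CPM in the vestibule (log2 fold change -1.25, SE 0.294, adjusted p = 0.0133). Both genes were thus near the filter in 1 of the tissues. Cdh18 was also higher in the cochlea, at 13.7, 14.5 and 13.7 CPM against 10.7, 7.16 and 9.07 CPM (log2 fold change -0.76, SE 0.187, adjusted p = 0.0165). The Cdh22 and Cdh18 calls depended on single libraries. Cdh22 missed the threshold without cochlear replicate 2 (log2 fold change -1.04, adjusted p = 0.0525), vestibular replicate 1 (-1.14, adjusted p = 0.0581) or vestibular replicate 2 (-1.24, adjusted p = 0.0548). Cdh18 missed it without cochlear replicate 2 (-0.70, adjusted p = 0.0614) or vestibular replicate 2 (-0.59, adjusted p = 0.0977).

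The type II cadherins that were not called were Cdh8, Cdh10, Cdh19 and Cdh24. Cdh8, a cadherin of neural circuits, was among the lowest tested members, between 0.935 and 1.93 CPM (log2 fold change -0.12, 95% interval -0.84 to 0.59). Cdh10 was 6.62, 6.28 and 4.89 CPM in the cochlea and 5.38, 3.08 and 4.28 CPM in the vestibule, and the unscaled groups overlapped (log2 fold change -0.60, 95% interval -1.18 to -0.03, adjusted p = 0.114). Cdh19, a cadherin of the Schwann cell lineage, was spread widely in the cochlea, at 6.01, 3.51 and 1.75 CPM, and was 7.52, 5.57 and 6.95 CPM in the vestibule (log2 fold change 0.72, 95% interval -0.17 to 1.61). Its log2 fold change was 1.20 without cochlear replicate 1 (adjusted p = 0.0501) and 0.36 without cochlear replicate 3. The summed Schwann cell markers were 375 to 554 CPM in the cochlea and 697 to 1034 CPM in the vestibule, with 2 of 6 called higher in the vestibule and none at 0. Cdh24 was between 7.28 and 13.8 CPM in all 6 libraries (log2 fold change -0.26, 95% interval -0.82 to 0.31).

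Of the remaining Cdh genes, Cdh13 and Cdh17 were tested. Cdh13 encodes T-cadherin, which has no cytoplasmic tail and is held in the membrane by a lipid anchor. Its values were tightly grouped, at 7.89, 7.60 and 7.80 CPM in the cochlea and 17.3, 17.7 and 18.6 CPM in the vestibule, so every vestibular library was above every cochlear one (log2 fold change 1.08, SE 0.151, adjusted p = 0.000880). Cdh17, a cadherin known from the intestine, was 2.71 to 3.76 CPM in the cochlea and 2.38 to 2.79 CPM in the vestibule and was not called (log2 fold change -0.50, 95% interval -1.01 to 0.01).

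A further 4 members stayed below 1 CPM in all 6 libraries and were not tested. Cdh16, a cadherin of the kidney, had 4, 2 and 8 reads in the cochlea and 13, 18 and 14 reads in the vestibule. Cdh7 had 8 to 14 reads in the cochlea and 14 to 28 in the vestibule, and Cdh26 had 13 to 21 and 9 to 22. Cdh12 had 14, 13 and 7 reads in the cochlea and 10, 1 and 2 reads in the vestibule. A floor of 3 reads corresponds to 0.0891 to 0.123 CPM in these libraries, and Cdh12 in vestibular replicates 2 and 3 and Cdh16 in cochlear replicate 2 were below it, so the levels of these genes are poorly determined.

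In the Fat and Dachsous group, Fat3 was the single member called, and it was higher in the cochlea. Fat3 (chr9:15910189-16501285), known for shaping the dendrites of retinal neurons, was 17.5, 27.4 and 31.5 CPM in the cochlea and 7.87, 5.30 and 4.79 CPM in the vestibule. All cochlear values were above all vestibular values (log2 fold change -2.22, SE 0.264, adjusted p = 0.000380). Fat4 and Dchs1, which bind each other as receptor and ligand in planar cell polarity, were not called. Fat4 was 104, 89.1 and 229 CPM in the cochlea and 146, 106 and 72.0 CPM in the vestibule (log2 fold change -0.50, 95% interval -1.30 to 0.29). Its highest value came from cochlear replicate 3, and without that library the log2 fold change was 0.011. Dchs1 was 170, 169 and 243 CPM against 191, 169 and 147 CPM, again with its highest value in cochlear replicate 3 (log2 fold change -0.32, 95% interval -0.69 to 0.05, and -0.15 without that library).

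Fat1, a regulator of actin at cell contacts, was the most abundant of the group, and ranged from 284 to 576 CPM in the cochlea and from 350 to 578 CPM in the vestibule. The tissues covered almost the same range (log2 fold change -0.05, 95% interval -0.64 to 0.54). Fat2, known from cerebellar granule cells, was 10.1 to 13.1 CPM and 5.61 to 11.7 CPM (log2 fold change -0.46, 95% interval -1.02 to 0.10). Fjx1, a kinase of the Fat and Dachsous pathway, was not called (log2 fold change -0.37, 95% interval -0.79 to 0.04).

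Of the 10 protocadherins, 5 were higher in the cochlea (Pcdh7, Pcdh10, Pcdh11x, Pcdh18 and Pcdh19), Pcdh20 was higher in the vestibule, and 4 were not called. Promoter sequence from RefSeq (GRCm38.p6) is shown for the members of this branch whose log2 fold change was beyond 1 in size and for which the table held an entry, to set the base composition of Pcdh20 beside that of genes that differed in the opposite direction. Each line gives the 250 bases before the transcription start in the direction of the gene, 5′ to 3′, with every CpG in capitals. Pcdh10 is from chr3:45378148-45378397 (plus strand), Pcdh19 from chrX:133688994-133689243 (minus strand) and Pcdh20 from chr14:88471397-88471646 (minus strand).
Pcdh10: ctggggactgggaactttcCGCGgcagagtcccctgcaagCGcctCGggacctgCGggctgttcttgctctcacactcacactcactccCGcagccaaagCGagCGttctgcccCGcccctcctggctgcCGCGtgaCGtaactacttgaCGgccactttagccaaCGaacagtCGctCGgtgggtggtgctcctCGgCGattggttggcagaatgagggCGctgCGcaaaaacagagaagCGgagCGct
Pcdh19: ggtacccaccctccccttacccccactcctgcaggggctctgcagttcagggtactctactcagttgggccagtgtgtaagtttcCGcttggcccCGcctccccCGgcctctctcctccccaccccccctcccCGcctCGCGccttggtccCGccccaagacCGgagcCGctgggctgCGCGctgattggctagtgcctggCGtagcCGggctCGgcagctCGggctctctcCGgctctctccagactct
Pcdh20: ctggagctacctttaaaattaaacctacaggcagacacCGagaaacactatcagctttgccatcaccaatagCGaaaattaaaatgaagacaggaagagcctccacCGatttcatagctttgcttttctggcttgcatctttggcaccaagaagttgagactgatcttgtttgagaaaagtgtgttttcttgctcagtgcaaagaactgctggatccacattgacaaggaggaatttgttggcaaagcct

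The Pcdh20 stretch held 3 CpG dinucleotides and was 42.4% G and C, whereas Pcdh10 had 22 (63.2%) and Pcdh19 had 16 (69.2%). The 7 protocadherins with an entry other than Pcdh20 held 7 to 23. Over 32851 promoters of the same length the median was 6 CpG and 52.4% G and C, and 37.8% of promoters held as few CpG as Pcdh20 or fewer, 76.5% as few as Pcdh19 and 86.7% as few as Pcdh10. Pcdh20 was thus below the median of all promoters and Pcdh10 and Pcdh19 above it. Among all called members with an entry, those higher in the vestibule held 3 (Pcdh20), 6 (Cdh9) and 10 (Cdh20) CpG. Those higher in the cochlea held 6 (Cdh6), 7 (Pcdh7), 8 (Cdh18), 16 (Pcdh19), 22 (Pcdh10), 23 (Pcdh18), 27 (Fat3) and 30 (Cdh22), so the ranges overlapped at the low end, and this was not tested. The tested members that were not called spanned 2 (Cdh10 and Fat1) to 22 (Cdh24). In all, 24 of the 36 members had an entry in the promoter table.

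Pcdh20 (ENSMUSG00000050505, chr14:88464743-88471396) was 28.5, 22.7 and 19.5 CPM in the cochlea and 152, 134 and 137 CPM in the vestibule. The lowest vestibular library was far above the highest cochlear one, and the fitted fold between the tissues was 5.51 (log2 fold change 2.46, SE 0.164, adjusted p = 1.65e-05). The members before and after it on chromosome 14, Pcdh17 at a distance of 3926 kb and Pcdh9 at 4542 kb, were not called.

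Pcdh11x (ENSMUSG00000034755, chrX:120290259-120910619), a protocadherin of the developing brain, showed the largest fold change of all 32 tested members. It was 13.7, 23.7 and 15.1 CPM in the cochlea and 1.63, 0.935 and 1.57 CPM in the vestibule, a 13.8-fold difference in the fit (log2 fold change -3.79, SE 0.329, adjusted p = 6.99e-05). Pcdh19 (ENSMUSG00000051323, chrX:133582860-133688987), the protocadherin mutated in a female-limited epilepsy, lies on the same chromosome and was 46.5, 33.9 and 56.1 CPM in the cochlea and 9.59, 8.26 and 9.73 CPM in the vestibule. The vestibular libraries were close together and far below the cochlear ones (log2 fold change -2.42, SE 0.193, adjusted p = 4.50e-05).

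Pcdh10 (ENSMUSG00000049100, chr3:45378398-45435623), which links to actin regulators in growing axons, was 39.2, 31.6 and 40.6 CPM in the cochlea and 11.9, 9.27 and 9.18 CPM in the vestibule, with no overlap (log2 fold change -1.99, SE 0.153, adjusted p = 3.52e-05). Pcdh7 was 47.9, 55.9 and 64.7 CPM against 41.3, 33.5 and 33.0 CPM, also without overlap (log2 fold change -0.77, SE 0.149, adjusted p = 0.00528). Pcdh18, the member next to Pcdh10 on chromosome 3, had the smallest difference that was called. Its levels were 62.4, 68.0 and 70.1 CPM in the cochlea and 60.9, 53.2 and 51.0 CPM in the vestibule (log2 fold change -0.40, SE 0.121, adjusted p = 0.0371). The Pcdh18 call did not survive the loss of cochlear replicate 2 (-0.37, adjusted p = 0.108), cochlear replicate 3 (-0.39, adjusted p = 0.0623), vestibular replicate 1 (-0.43, adjusted p = 0.0682), vestibular replicate 2 (-0.35, adjusted p = 0.206) or vestibular replicate 3 (-0.37, adjusted p = 0.0935). It was also lost when library size alone was used for scaling (-0.28, adjusted p = 0.131).

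Some neuronal markers and most supporting cell markers also differed between the tissues. The summed neuronal markers were 163 to 530 CPM in the cochlea and 104 to 316 CPM in the vestibule, so the groups overlapped, with 3 of 6 called higher in the cochlea and none at 0. The summed supporting cell markers were 731 to 883 CPM and 580 to 727 CPM, with 5 of 6 called higher in the cochlea and none at 0. Other marker lists moved with the 6 members that were higher in the vestibule (Pcdh20, Cdh3, Cdh9, Cdh11, Cdh13 and Cdh20). Of the 6 hair cell markers, whose sums are given above, 3 were called higher in the vestibule and none in the cochlea. The summed melanocyte markers were 31.0 to 60.0 CPM in the cochlea and 272 to 336 CPM in the vestibule, and the summed macrophage markers 77.6 to 92.1 CPM and 304 to 330 CPM, with 5 of 5 called higher in the vestibule in each list. The summed endothelial markers were 168 to 211 CPM and 356 to 497 CPM, with 3 of 5 called higher in the vestibule and 1 in the cochlea. The cartilage list was mixed, with 2 of 4 called higher in the vestibule, 1 in the cochlea, and overlapping sums of 7897 to 15050 CPM and 9226 to 12130 CPM. None of the markers of these lists was at 0. The part of any of these cell types in the differences of the members was not tested.

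Pcdh1, Pcdh8, Pcdh9 and Pcdh17 were not called. Pcdh1, a protocadherin of airway epithelium, was 46.1 to 65.7 CPM in the cochlea and 49.6 to 66.3 CPM in the vestibule (log2 fold change -0.09, 95% interval -0.45 to 0.26). Pcdh9 was 17.6 to 24.8 CPM and 18.2 to 30.4 CPM (0.14, 95% interval -0.37 to 0.65), and Pcdh8 was 3.64 to 6.67 CPM and 6.35 to 7.30 CPM (0.21, 95% interval -0.39 to 0.80). In each of these genes the tissues overlapped. Pcdh17 was 22.7 to 27.2 CPM in the cochlea and 16.7 to 27.1 CPM in the vestibule (log2 fold change -0.37, 95% interval -0.79 to 0.04), and without vestibular replicate 1, the library at 27.1 CPM, it was called higher in the cochlea (-0.56, adjusted p = 0.0444). Over the family, 9 of the 15 members that were not called had a 95% interval that lay wholly within a log2 fold change of 1 in either direction.

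**Figure D2:**
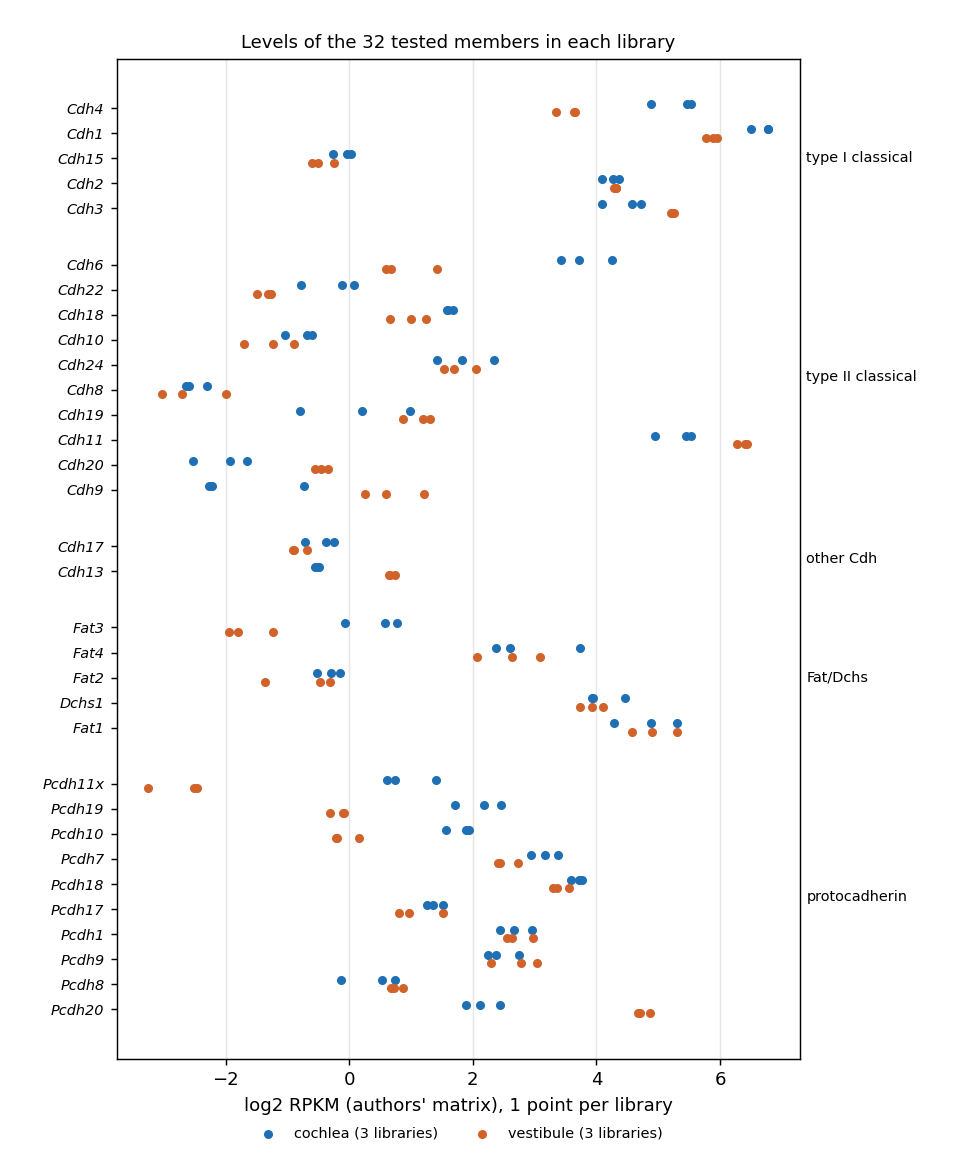
Level of each of the 32 tested members in each library (x axis, log2 RPKM from the authors' matrix), grouped by branch, with the 3 cochlear libraries in blue and the 3 vestibular libraries in orange. On this scale Cdh1 is highest in the cochlea and Cdh11 in the vestibule, and Cdh8 stays low in both tissues. The points of Pcdh20, Pcdh11x, Pcdh19 and Cdh6 fall into well separated pairs of clusters.

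Levels were compared between genes on the RPKM scale. On average 9 members were over 10 RPKM in each tissue, and 9 in the cochlea and 11 in the vestibule were under 1 RPKM. In the cochlea Cdh1 stood first, at 104 ± 11.1 RPKM (SD, n = 3), with its lowest library above the highest of any other member. It was followed by Cdh11 at 40.2 ± 8.10 RPKM, Cdh4 at 39.9 ± 9.20 RPKM and Fat1 at 29.5 ± 10.0 RPKM, whose ranges overlapped from one to the next. In the vestibule Cdh11 stood first at 82.8 ± 5.08 RPKM and Cdh1 second at 58.8 ± 3.49 RPKM, without overlap, and Cdh3 (37.6 ± 0.677 RPKM) and Fat1 (31.2 ± 7.89 RPKM) came next and overlapped. Pcdh20 moved from rank 14 in the cochlea to rank 5 in the vestibule, and Cdh4 from rank 3 to rank 8.

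The order depends on the gene lengths behind the RPKM values. The length implied by the authors' matrix was within 10% of the GENCODE vM21 exon length for 20 of the 32 members, and under 75% of it for 8, with Cdh6 at 0.291 and Cdh11 at 0.473 of the exon length. With GENCODE lengths, a setting added after the values were seen, Cdh1 stood first in the vestibule at 58.8 RPKM and Cdh11 second at 39.2 RPKM. In the cochlea Cdh1 was first with either length, and Cdh11 went from rank 2 to rank 5. Fold changes between the tissues do not use gene length.

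The make-up of each branch was then described as shares of its summed RPKM. The sums themselves were set side by side first. They were taken for the 17 tested Cdh genes (252 ± 26.2 RPKM in the cochlea and 227 ± 9.36 RPKM in the vestibule), for the Fat and Dachsous genes (57.5 ± 17.9 and 53.8 ± 12.3 RPKM) and for the protocadherins (52.4 ± 2.94 and 62.7 ± 6.83 RPKM). Whether the tissues overlapped in these sums turned on the scaling of the libraries. As deposited, the Cdh sums overlapped, and the protocadherin sums did not, with the lowest vestibular library at 57.5 RPKM and the highest cochlear one at 55.6 RPKM. With TMM scaling, a setting added after the values were seen, the Cdh sums were 232 to 284 RPKM in the cochlea and 210 to 223 RPKM in the vestibule, without overlap, whereas the protocadherin sums were 51.0 to 56.7 RPKM and 54.6 to 64.8 RPKM and overlapped. The Fat and Dachsous sums overlapped on either scale. Shares within a library do not depend on this scaling. Among the Cdh genes, Cdh1 accounted for 39.5% to 43.8% of the cochlear and 24.9% to 26.9% of the vestibular sum, and Cdh4 for 15.7 ± 2.40% and 5.18 ± 0.571% (SD, n = 3). Cdh11 made up 16.1 ± 4.04% and 36.6 ± 1.61%, and Cdh3 8.83 ± 1.10% and 16.6 ± 0.780%. The same kind of shift was seen in the protocadherins, where Pcdh20 accounted for 8.68 ± 2.13% of the cochlear and 43.2 ± 1.68% of the vestibular sum, and Pcdh18 24.7 ± 0.621% and 17.1 ± 0.765%. Shares within a branch sum to 100%, so a rise of 1 member lowers the others. With GENCODE lengths Cdh11 had 8.91% of the Cdh sum in the cochlea and 22.2% in the vestibule, and Pcdh20 10.2% and 47.6% of the protocadherin sum.

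**Figure D3:**
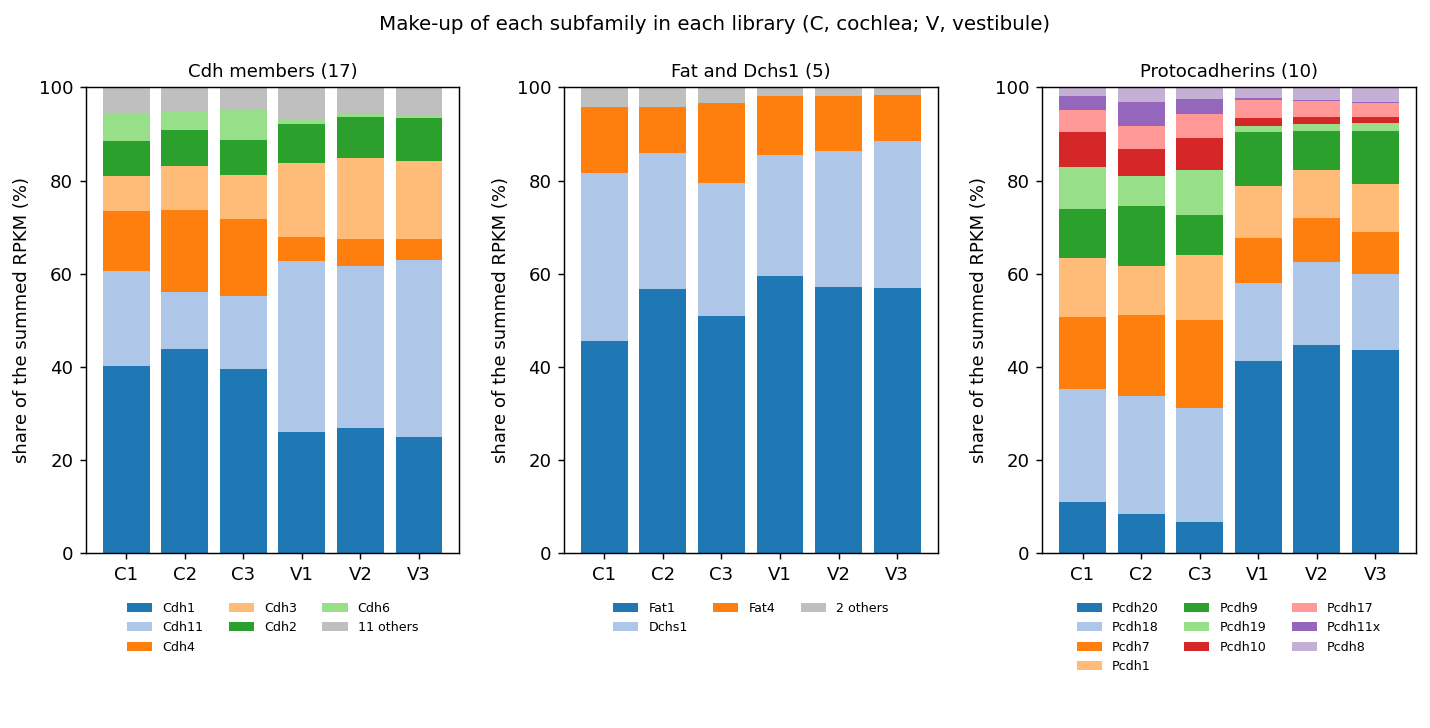
Share of each gene in the summed RPKM of its branch (y axis, percent) in each library, for the Cdh genes, the Fat and Dachsous genes and the protocadherins; C1 to C3 are the cochlear and V1 to V3 the vestibular replicates, and members under 3% in all 6 libraries are pooled in grey. Cdh11 and Cdh3 take larger shares in the vestibule and Cdh1 and Cdh4 in the cochlea, Fat1 leads its group in all 6 libraries, and Pcdh20 grows from 8.68% to 43.2% on average.

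Proteins that work with cadherins were examined in lists taken from general knowledge. Of 31 such genes 28 were tested, of which 4 were higher in the cochlea and 2 were higher in the vestibule (21.4% called, beside 27.4% of all genes). The catenins Ctnnb1, Ctnna1 and Ctnnd1, which tie classical cadherins to actin or steady them at the membrane, were not called. Ctnnb1 was 1243 ± 115 CPM in the cochlea and 1266 ± 42.1 CPM in the vestibule (SD, n = 3). Ctnna1 was 264 ± 17.4 CPM and 358 ± 31.7 CPM, with no overlap between the tissues (log2 fold change 0.32, 95% interval 0.04 to 0.60, adjusted p = 0.0921). Pkp4, an armadillo protein of cell junctions, was the only called gene of the catenin list. It was 317, 323 and 494 CPM in the cochlea and 194, 174 and 129 CPM in the vestibule (log2 fold change -1.31, SE 0.202, adjusted p = 0.00146).

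Of the nectins, which nucleate adherens junctions beside cadherins, Nectin3 was higher in the cochlea (log2 fold change -0.55, SE 0.144, adjusted p = 0.0216) and Nectin4 was higher in the vestibule (0.53, SE 0.142, adjusted p = 0.0229). Furin and Adam10, which cut cadherins, were not called. Of 6 factors known to repress Cdh1, Snai1 (log2 fold change -0.75, SE 0.199, adjusted p = 0.0227) and Zeb2 (-0.49, SE 0.113, adjusted p = 0.0116) were higher in the cochlea, where Cdh1 was also higher, and 4 were not called. Of these, Zeb1 (0.39, 95% interval 0.09 to 0.69, adjusted p = 0.0613) and Twist2 (0.36, 95% interval -0.11 to 0.84) had a log2 fold change of the opposite sign, so that 4 of the list were negative and 2 positive. Of 5 epithelial transcription factors 3 were tested, and 2 of these were not called. The other, Grhl2, was higher in the vestibule (log2 fold change 0.73, SE 0.186, adjusted p = 0.0198). Its level was 24.9, 22.6 and 35.5 CPM in the cochlea and 55.6, 54.4 and 39.4 CPM in the vestibule, so it moved opposite to Cdh1 and with the epithelial markers.

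The 36 members lie on 13 chromosomes, with 8 on chromosome 8 and 5 each on chromosomes 14 and 15. Members that follow each other on a chromosome, at whatever distance, formed 23 pairs, of which 8 had no annotated coding gene between them. Both members were called in 5 pairs, in the same direction in 2 (Pcdh10 with Pcdh18 and Pcdh11x with Pcdh19, all higher in the cochlea) and in opposite directions in 3 (Cdh3 with Cdh1, Cdh1 with Cdh13, and Cdh6 with Cdh9). Only Cdh6 and Cdh9 of these pairs had no coding gene between them. Cdh3 and Cdh1 had 1, as did Pcdh10 and Pcdh18, which lie 4308 kb apart, whereas Pcdh11x and Pcdh19 had 20 and Cdh1 and Cdh13 had 95. Exons of 6 members (Cdh8, Dchs1, Fat1, Fat4, Pcdh7 and Pcdh19) overlap another gene of the count tables on the opposite strand. The library kit keeps strand, but the strand setting of the counting is not given in the sources used here, so reads of these partners may not have been told apart.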

How the data were processed

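RNA-seq of 6 libraries, 3 from cochlear and 3 from vestibular sensory epithelium of newborn C57Bl/6J mice, was analysed. Per the labels, stranded mRNA libraries were made from 450 ng RNA and sequenced as 100 bp read pairs, and the submitters' processing notes name TopHat2 2.1.0, SAMtools 0.1.18, HTSeq 0.5.4p5 and edgeR 3.4.2 with GRCm38. The authors deposited raw counts per Ensembl gene for each library and a matrix of log2 RPKM values of all libraries. The 5 summary lines of each count table (18.5% to 20.6% of its total) were left out.

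Groups were taken from the sample titles. Genes that reached 1 CPM in a minimum of 3 libraries were kept, and their counts were fitted in edgeR 4.0.16 (R 4.3.3) with TMM scaling, a quasi-likelihood test of vestibule against cochlea (two-sided) and Benjamini-Hochberg adjustment over all 14723 genes at an FDR of 0.05, with no replicate block. CPM values printed per library are counts over the library's gene total, and overlap of the groups was judged on TMM-scaled CPM. Fold changes are TMM-scaled. Intervals are 95% intervals of that fit. The fit was tested on simulated data. RPKM values are the authors' log2 values raised back, with no pseudocount. Coordinates are those of GENCODE vM21 (GRCm38). Alternatives were DESeq2 1.42.0, limma-voom (limma 3.58.1), other scalings and filters, the replicate number as a block and leaving out each library in turn.

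The members, the partner and marker lists and the tests were chosen with earlier results of these data known. All 36 members are named, those called with full statistics, and of each partner list the called genes, up to 3 per direction. Ctnnb1, Ctnna1, Ctnnd1, Fjx1, Furin, Adam10, Zeb1 and Twist2 were added after their values were seen. No library pair differed by as little as sampling noise. Read counts and intervals cover the spread between these libraries only.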

Additional observations from a re-analysis of the deposited data

How the results depend on the processing

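Members called higher in the cochlea numbered 8 to 11 and in the vestibule 5 or 6 over the alternatives run, and no called member changed sign in any of them. Calls of 13 of the 17 called members held under all 14 settings of the fit. The exceptions, Cdh3, Cdh18, Cdh22 and Pcdh18, each lost their call without single libraries, as given above, and Pcdh18 also without a filter on low counts (adjusted p = 0.0554). Of 448 values of the log2 fold change, 415 kept direction and side of the threshold, 20 lost the call, 1 gained it (Pcdh17) and 12 changed sign, all of them in members that were not called. With library size alone for scaling, which moved the median of all genes to 0.125, the sign changed for Cdh2 (0.061), Cdh8 (0.0065), Fat1 (0.079) and Pcdh1 (0.025), and 68.8% of called genes were higher in the vestibule, against 57.6%. Leaving out 1 library in turn gave -0.43 to 0.099 for Cdh8 (above 0 without cochlear or vestibular replicate 2), -0.29 to 0.19 for Fat1 (above 0 without cochlear or vestibular replicate 3), -0.73 to 0.011 for Fat4 (above 0 without cochlear replicate 3), -0.19 to 0.030 for Pcdh1 (above 0 without cochlear replicate 3 or vestibular replicate 2) and -0.018 to 0.43 for Pcdh8 (below 0 without cochlear replicate 1). Over all genes, leaving out 1 library gave 925 to 1863 genes higher in the cochlea, with 1035 without cochlear replicate 2 and 925 without vestibular replicate 2, and 1342 to 2694 higher in the vestibule, with 1522 without vestibular replicate 1 and 1342 without vestibular replicate 2. These fits have fewer samples. The log2 ratio of Cdh1 to Cdh2 in the cochlea was 2.39 on the log2(RPKM + 1) scale. With GENCODE lengths, chosen after seeing the data, the log2 ratio of Cdh1 to Cdh11 went from 1.38 to 2.46 in the cochlea and from -0.49 to 0.58 in the vestibule, which follows from the longer exon length of Cdh11.

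The replicate numbers are shared between the tissues. Deviations of same-numbered libraries from the mean of their tissue correlated at -0.175, -0.26 and -0.475. Those of unlike-numbered libraries correlated at -0.27 to 0.406. With 3 libraries per tissue, these values cannot decide whether the numbers pair the samples. With the replicate block, 8 members were higher in the cochlea and 5 in the vestibule, and 1009 and 1609 of all genes. The calls of Cdh3 (adjusted p = 0.0566), Cdh18 (0.0664), Cdh22 (0.0511) and Pcdh18 (0.159) were lost there with little change in the fold change, and no other member's call changed. Depth limits Cdh7, Cdh12, Cdh16 and Cdh26 most, and among the tested members Cdh8, Cdh9, Cdh20 and Pcdh11x were under 1 CPM in at least 1 library, with 24 to 55 reads for Pcdh11x in the vestibule.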
